A study of Mus musculus with 6 samples.

Results

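The guanylate-binding proteins (GBPs) were described here through 10 mouse genes, Gbp2, Gbp2b, Gbp3, Gbp4, Gbp5, Gbp6, Gbp7, Gbp8, Gbp9 and Gbp10, which were chosen by symbol and not by their values. All 10 are listed among the 26264 gene symbols that were counted in each library. Bulk RNA sequencing was performed on immortalized brown preadipocytes and on the adipocytes they form, with 2 treatments, 3 days and 1 library per condition. By the methods, the cells were cultures of the stromal vascular fraction of interscapular brown fat from wild-type Bl6N mice. Whether 1 line gave all libraries is not stated there. The cells were immortalized with SV40 large T antigen, an agent that both treatments share. They were left untreated (called vehicle-treated in the methods) or exposed to fibroblast growth factor 8 (FGF8, 5.5 nM) for 48 h, and were harvested directly (day 0), at day 3 or at day 9, the last being labelled as day 7 of differentiation after 2 days of induction. By the methods, differentiation was induced with insulin, T3, IBMX, dexamethasone, indomethacin and rosiglitazone. The later libraries of both treatments thus share agents that day 0 lacks. The growth text in the labels speaks of primary white cells and of several FGFs, while the titles describe the immortalized brown cells. The labels give the same genotype for both treatments, and because every condition is 1 library, no difference at a single day has a replicate check.

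GBPs are large GTPases of the dynamin superfamily. Their genes are among those most strongly switched on by interferon-gamma, in part through the transcription factor IRF1. The proteins assemble on the vacuoles of intracellular parasites and on bacteria in the cytosol, help to break these open, and so expose microbial products to caspase-4 (also called caspase-11 in mice) and to inflammasomes. Fat cell precursors are stromal cells, and stromal cells use the same interferon pathway as cells of the immune system. The mouse genes lie in a pair of clusters. In GRCm39, Gbp5 (chr3:142199739-142228105), Gbp7 (chr3:142236044-142255910), Gbp3 (chr3:142265731-142278979), Gbp2b (chr3:142300602-142324940) and Gbp2 (chr3:142326349-142343779) follow each other on the plus strand of chromosome 3. On the minus strand of chromosome 5, Gbp8 (chr5:105162016-105287452), Gbp9 (chr5:105224332-105287452) and Gbp4 (chr5:105263633-105287609) overlap each other, and Gbp10 (chr5:105362773-105412666) and Gbp6 (chr5:105418568-105443751) follow.

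Promoter windows from RefSeq, 250 bases before to 50 after a start site, were matched for 5 of the 10 members, Gbp2, Gbp2b, Gbp3, Gbp5 and Gbp7, and were placed on GRCm39 by exact match. They were searched on both strands for GAAA, 2 bases of any kind and GAAA, the core of the interferon-stimulated response element (ISRE), and for TTC, 3 bases of any kind and GAA, the core of the gamma-activated sequence (GAS), both elements of interferon-inducible promoters. The ISRE letters were present for 5 of 5 members, against 3.97% of 27020 other genes, and in 5 of 6 member windows, against 3.43% of 32845 other windows, since Gbp3 has a second window without them. The GAS letters were present for 2 of 5 members, Gbp5 and Gbp7, with 2 matches each, against 9.55% of the other genes and 8.29% of the other windows. Stretches around the matches are shown for the 5 members with a window. All 10 members, also the 5 without a window, were lower after FGF8 at day 0. The capitals mark the matches to the ISRE letters, which read TTTC, 2 bases and TTTC on the plus strand and overlap each other in Gbp3.
Gbp2 (chr3:142326350-142326389, plus strand): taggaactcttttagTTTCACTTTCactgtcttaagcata
Gbp2b (chr3:142300456-142300495, plus strand): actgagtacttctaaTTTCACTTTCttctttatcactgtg
Gbp3 (chr3:142265745-142265790, plus strand): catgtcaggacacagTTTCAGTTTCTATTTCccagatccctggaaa
Gbp5 (chr3:142202515-142202554, plus strand): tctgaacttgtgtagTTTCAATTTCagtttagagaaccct
Gbp7 (chr3:142236029-142236068, plus strand): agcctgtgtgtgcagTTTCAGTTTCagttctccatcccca
Positions were counted from the RefSeq start site of each window, not from the gene starts printed above. The match began at -59 in Gbp2, -53 in Gbp7, -137 in Gbp2b and -165 in Gbp5, and the nearer of 2 matches in Gbp3 began at -39. The stretches of Gbp2, Gbp3 and Gbp5 lie inside the gene spans printed above. Gbp2 and Gbp2b share the same 10 letters, and Gbp7 shares its letters with the first match in Gbp3. A match is a description of letters, not a site of binding.

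The libraries held 16403254 to 38551551 counts. The day 0 libraries stood apart from the later ones in 4 genes with at least 200 counts in both of them and at most 3 in any other library, and Gbp2b is 1 of these. The other 3 were Ifi202b, Mir6236 and Ptchd1, and the X-linked Xist had 2530 and 5837 counts at day 0 but 7 to 26 later, while 4 Y-linked genes had at least 703 counts in every library. The part of this difference in the results was not tested, and day and source of the cells cannot be told apart, so results over the 3 days are given with and without day 0. The labelled cell type was checked by marker sums. Adipocyte markers summed to 411 normalized counts in untreated and 1672 in FGF8 cells at day 0, and to at least 218286 in each later library. Of 14 macrophage markers, 8 had at most 3 counts in every library, with Adgre1, C1qa and C1qb at 0 in all 6 and Ptprc at no more than 1 count. The rest were counted, with 32 to 128 counts over the libraries for Cd14, 27 to 141 for Cd68 and 4 to 61 for Csf1r. Fcer1g had 1 to 64 counts, Lyz2 1 to 22 and Mrc1 0 to 13.

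Normalized counts are counts over median-of-ratios size factors, and levels of different genes were compared only per kb of annotated exon. On that scale the GBP pool of all 10 members was 12016 normalized counts per kb in untreated cells at day 0 and came to 4409 and 3352 at days 3 and 9. After FGF8 it was 1743, 3786 and 1849 at the same days. The untreated day 0 library held the highest level and the FGF8 day 0 library the lowest. Members of chromosome 3 made up 91.1% to 95.9% of the pool per kb in the 6 libraries.

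Per kb, 4 genes of chromosome 3 led in untreated cells at day 0, with Gbp3 at 30.5%, Gbp2 at 27.6%, Gbp2b at 20.9% and Gbp7 at 16.1% of the pool. In FGF8 cells at day 0 the order was Gbp2 (28.7%), Gbp2b (24.3%), Gbp3 (24.0%) and Gbp7 (18.3%), with Gbp2b and Gbp3 nearly equal at 423 and 419 normalized counts per kb. With the canonical transcript as the length, an alternative chosen after seeing the data, Gbp3 led there too, at 31.5%. From day 3 on, Gbp3 alone made up 51.3% to 67.7% of the pool, and Gbp2, Gbp7 and Gbp6 followed in this order in the 4 later libraries. With the canonical length Gbp6 (9.33%) lay above Gbp7 (8.64%) in FGF8 cells at day 9. With 1 library per condition, no spread over samples is available for this order.

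**Figure D1:**
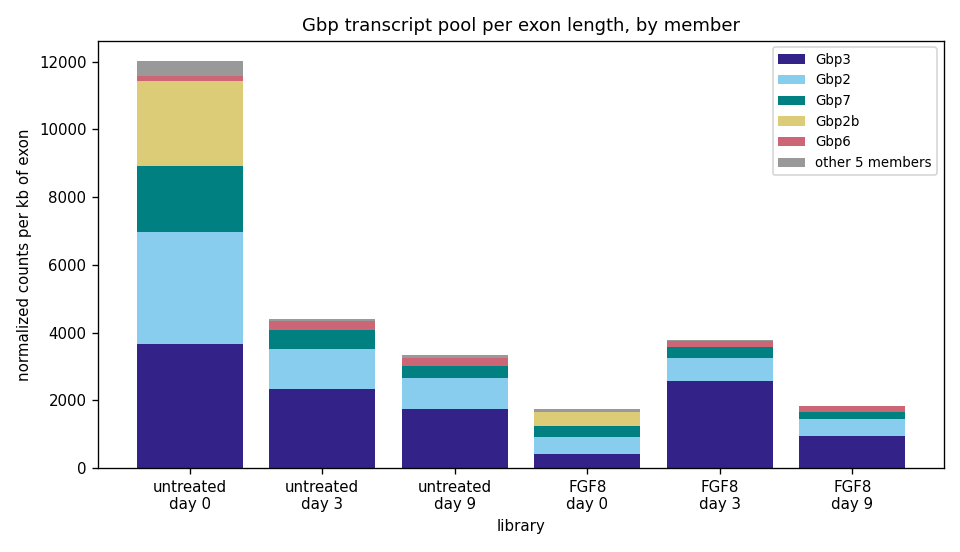
The stacked bars give, for each of the 6 libraries, the normalized counts per kb of exon of the GBP members, starting at 0. The untreated day 0 bar reaches 12016 and the FGF8 day 0 bar 1743, and the Gbp2b segment is visible only in the day 0 bars.

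After FGF8, GBP transcripts of both clusters were far lower in preadipocytes at day 0. Averaged over the day 0 pair, all 10 members reached the minimum of 20 normalized counts. Of these, 10 were at least 2-fold lower (10.8% of all genes tested), all 10 lay below 0 (45.9% of all genes), and 0 were at least 2-fold higher (7.27% of all genes). Gbp4, Gbp8 and Gbp10 passed the minimum only through the untreated library. The median log2 fold change was -2.93, with Gbp10 at its bound or not, against 0.054 over all genes. The normalized counts of the family summed to 47734 without FGF8 and to 6897 with it, 6.92-fold lower. At this day the marker sum of 6 preadipocyte genes was also lower in the FGF8 library (29418 against 123650). This was mostly Pdgfra and Ly6a, with 5 of 6 lower and Thy1 higher (4427 against 2773). The sum of the macrophage markers was lower too (191 against 317, 6 of 14 lower). For 7 endothelial markers the sum was 73.0 against 1630, mostly Kdr and Tek, with 3 of 7 lower. The part of these markers in the result was not tested. In bulk RNA, fewer cells of a type and less RNA per cell cannot be told apart.

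**Figure D2:**
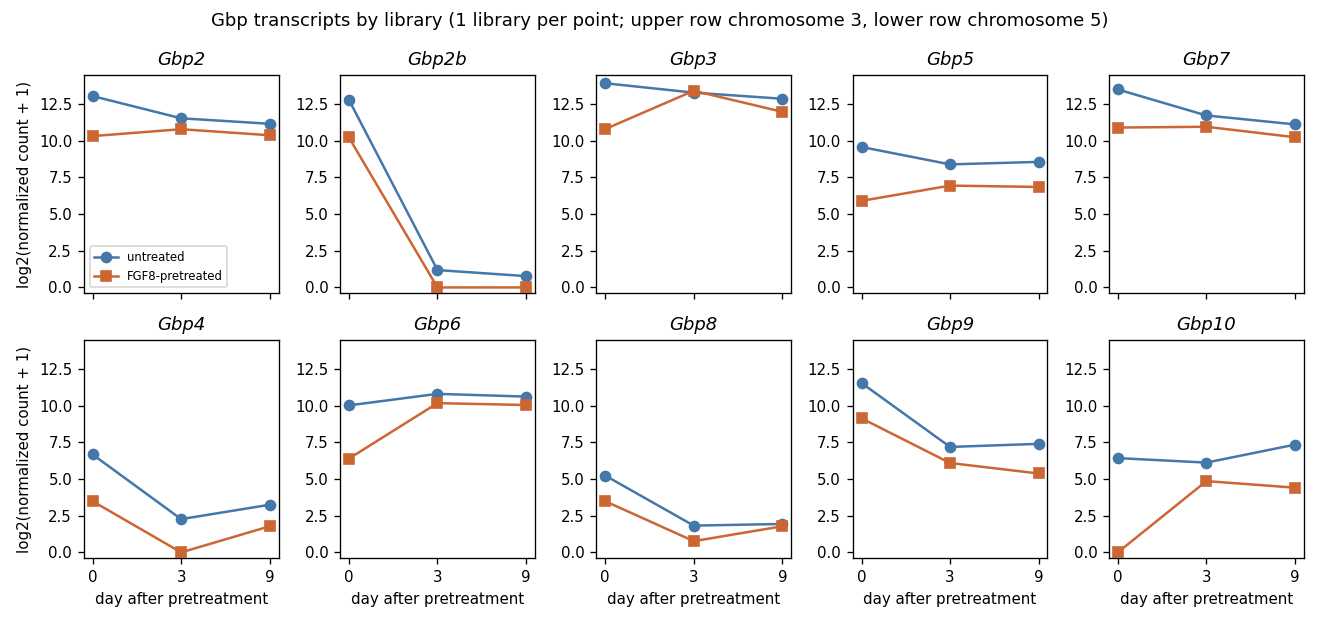
Each panel plots log2(normalized count + 1) of 1 member against day, with 1 library per point, circles for untreated and squares for FGF8-pretreated cells. The squares lie below the circles in every panel at day 0, meet them in Gbp3 at day 3, and Gbp2b lies at or near 0 after day 0 in both treatments.

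Gbp2, which is recruited early to parasite vacuoles and to bacteria in the cytosol, had 8480, 2964 and 2288 normalized counts in untreated cells and 1279, 1770 and 1328 in FGF8 cells at days 0, 3 and 9. Each FGF8 library lay below the untreated library of its day. The log2 fold change was -2.73 at day 0 (95% counting interval -2.83 to -2.63), which is 6.63-fold lower, and then -0.74 and -0.78. This interval treats the pair of counts as binomial (exact, Clopper-Pearson) and reflects counting error alone.

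Gbp7, a member linked to vacuole membranes and to oxidant production in macrophages, had 11579, 3391 and 2223 normalized counts in untreated and 1913, 1986 and 1212 in FGF8 cells. Its pattern was close to that of Gbp2, with a level at day 3 in FGF8 cells that was 1.04-fold that of day 0. The log2 fold change by FGF8 was -2.60 (-2.68 to -2.52) at day 0, -0.77 at day 3 and -0.87 at day 9.

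Gbp3, the most abundant member per kb in 5 of the 6 libraries, had 15545, 9969 and 7464 normalized counts in untreated and 1781, 10893 and 4026 in FGF8 cells. Only at day 3 did its FGF8 library lie above the untreated one. The log2 fold change was -3.13 (-3.21 to -3.05) at day 0, 0.13 (0.089 to 0.17) at day 3 and -0.89 (-0.94 to -0.84) at day 9. Gbp3 was thus 8.73-fold lower, then 1.09-fold higher and then 1.85-fold lower. The small day 3 value depended on the scale. It was 0.087 with size factors from the pair alone and 0.020 with total counts as the scale.

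Gbp5, which promotes assembly of the NLRP3 inflammasome, had 764, 335 and 377 normalized counts in untreated and 58.9, 122 and 115 in FGF8 cells. It was at least 2-fold lower after FGF8 at each of the 3 days. The fold was 13.0 at day 0 (log2 fold change -3.67, interval -4.17 to -3.26), 2.74 at day 3 (-1.45, -1.74 to -1.17) and 3.29 at day 9 (-1.71, -2.00 to -1.45).

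Gbp2b, known in older literature as mouse Gbp1, was counted almost only at day 0. It had 4837, 1 and 1 counts in untreated and 935, 0 and 0 counts in FGF8 cells. At day 0 this was 7105 against 1197 normalized counts, a log2 fold change of -2.57 (-2.67 to -2.47), and at the later days no FGF8 fold can be given with at most 3 counts in both libraries. In untreated cells day 3 was 5582-fold lower than day 0, with a counting interval of 1001-fold to 220539-fold from its single count, and in FGF8 cells it was at least 568-fold lower by the floor of 3 counts, with a counting interval from 461-fold upward.

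The members of chromosome 5 made up the smaller share of the pool per kb in every library. Gbp6 had 1041, 1796 and 1577 normalized counts in untreated and 83.2, 1157 and 1060 in FGF8 cells. It was 12.5-fold lower after FGF8 at day 0 (log2 fold change -3.63, interval -4.04 to -3.28) and 1.55-fold and 1.49-fold lower at days 3 and 9. Gbp6 was the member whose untreated level was higher at both later days than at day 0, among those at or above 100 normalized counts in each untreated library.

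Gbp9 had 2996, 145 and 168 normalized counts in untreated and 565, 67.4 and 40.6 in FGF8 cells. It was lower after FGF8 at each day, by 5.31-fold at day 0 (log2 fold change -2.41, interval -2.56 to -2.26), 2.15-fold at day 3 (-1.10, -1.51 to -0.70) and 4.14-fold at day 9 (-2.02, -2.52 to -1.60). Its level was also 20.7-fold lower at day 3 than at day 0 in untreated cells.

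Gbp10 had 58, 54 and 228 counts in untreated and 0, 40 and 25 counts in FGF8 cells, or 85.2, 68.7 and 162 against 0, 28.1 and 20.3 normalized counts. Its FGF8 libraries lay below the untreated ones at each day. At day 0 it was at least 22.2-fold lower, with the 0 counts set to a floor of 3 counts in that library, and its counting interval reached down to 17.5-fold. Its level at day 3 was 2.45-fold lower (log2 fold change -1.26, interval -1.92 to -0.67) and that at day 9 was 7.96-fold lower (-2.93, -3.65 to -2.39). Gbp10 and Gbp6 are uncertain as single genes. Of the 100-base stretches of their transcripts, 64.8% in Gbp10 and 62.0% in Gbp6 occur unchanged in another transcript of the family, mostly in each other, and 44.0% and 25.4% of their exon bases overlap the gene model Gm43302 on the same strand. In the other 8 members the shared stretches were at most 6.00%. Their neighbour Gbp11, a paralog outside the 10 members, had 41, 161 and 523 counts in untreated and 2, 116 and 231 counts in FGF8 cells, and was below the untreated level at each day (log2 fold changes -4.10, -1.32 and -0.98).

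Gbp4 and Gbp8 were near the limit of detection. Gbp4 had 69, 3 and 12 counts in untreated and 8, 0 and 3 in FGF8 cells. Gbp8 had 25, 2 and 4 counts in untreated and 8, 1 and 3 in FGF8 cells. At day 0 Gbp4 was 9.90-fold lower after FGF8 (log2 fold change -3.19, interval -4.57 to -2.25) and Gbp8 3.59-fold lower (-1.75, -3.20 to -0.65). At day 9 the interval of Gbp4 (-4.27 to 0.085) and that of Gbp8 (-2.99 to 2.34) included 0, so at such low counts no difference could be detected, and at day 3 both genes had at most 3 counts in each library.

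**Figure D3:**
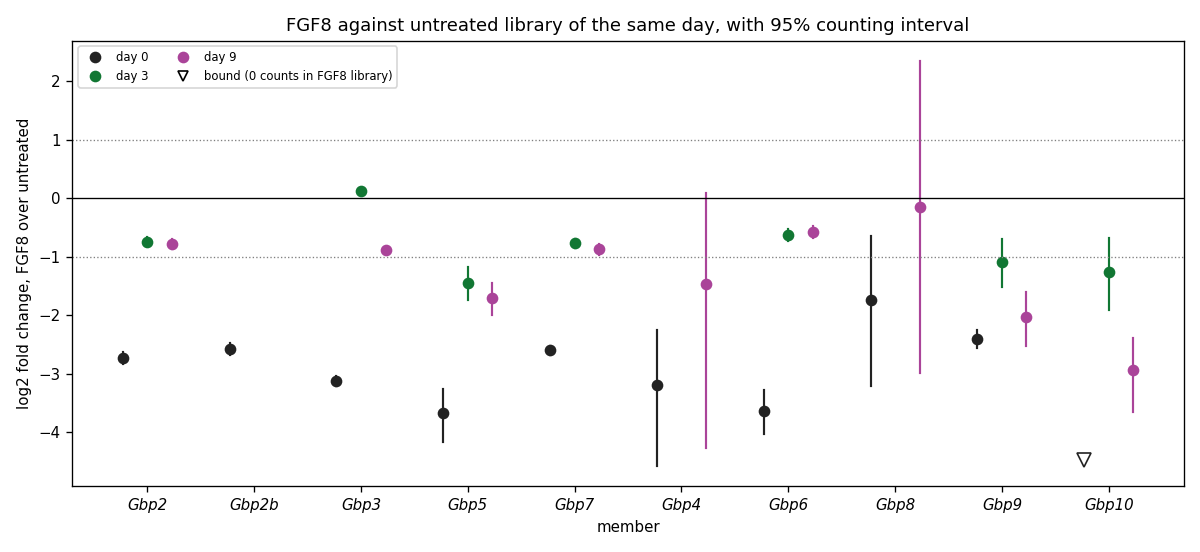
The points give the log2 fold change of FGF8 over untreated cells for each member and day, with vertical lines for the 95% counting interval, dotted lines at 2-fold, and an open triangle for the bound of Gbp10 at day 0. The day 0 points of all members lie below -1, from -1.75 in Gbp8 to -3.67 in Gbp5 and the bound of Gbp10, and Gbp3 at day 3 is the single point above 0.

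At day 3, 7 of the 10 members passed the minimum, 3 of them (Gbp5, Gbp9 and Gbp10) were at least 2-fold lower after FGF8, against 12.1% of all genes, 0 were at least 2-fold higher (3.8% of all genes), and 6 lay below 0 (44.5% of all genes). The median over the 7 was -0.77 against 0.081 over all genes. At day 9 the same 7 members passed, all lay below 0 against 40.8% of all genes, and the same 3 were at least 2-fold lower against 8.74% of all genes, with 0 at least 2-fold higher (1.12% of all genes). The median over these 7 was -0.89 against 0.083 over all genes. The family sum was lower by 1.17-fold at day 3 and by 1.83-fold at day 9. The members of chromosome 3 that were tested had medians of -2.73, -0.76 and -0.88 at days 0, 3 and 9, and those of chromosome 5 had -3.19, -1.10 and -2.02. The marker sums that were lower at day 0 lay the same way at the later days. They were 10285 against 38200 and 6969 against 30651 for preadipocyte markers, with 5 and 6 of 6 genes lower. For macrophage markers they were 185 against 291 and 193 against 256, with 4 and 5 of 14 lower, and Cd68 and Fcer1g were higher. For endothelial markers they were 35.1 against 213 and 35.8 against 201, with 5 of 7 lower at each day. Adipocyte marker sums lay the other way, with 433090 against 218286 at day 3 and 571361 against 489694 at day 9 and 0 of 7 genes lower, and T and NK cell markers summed to at most 4.41 in every library.

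In untreated cells GBP levels were mostly lower after day 0. Day, the agents of differentiation and the source of the cells cannot be told apart in comparisons with day 0. Of the 9 members tested between day 3 and day 0, 6 were at least 2-fold lower, against 15.5% of all genes, and 0 were at least 2-fold higher (19.5% of all genes). These 6 were Gbp2, Gbp2b, Gbp5, Gbp7, Gbp4 and Gbp9, with folds from 2.28 in Gbp5 to 26.5 in Gbp4 beside the 5582 of Gbp2b. Gbp2b and Gbp4 passed the minimum only through the day 0 library. Between day 9 and day 3 untreated levels moved less, with 0 of 7 members at least 2-fold lower (4.42% of all genes) and 1, Gbp10, higher by 2.35-fold (8.77% of all genes). Between day 9 and day 0, 7 of 9 were at least 2-fold lower (19.5% of all genes) and 0 higher (23.7% of all genes), with Gbp2b and Gbp4 again passing only through day 0.

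In FGF8-pretreated cells some members were higher and some lower after day 0, as was the case for all genes. With 7 members tested, the counts against day 0 are not far from the shares of all genes. Of 7 members tested, 3 were at least 2-fold higher at day 3 than at day 0, against 24.1% of all genes, and 2 were at least 2-fold lower, against 22.0%. The higher ones were Gbp6 (13.9-fold), Gbp3 (6.12-fold) and Gbp5 (2.07-fold), and the lower ones were Gbp9 (8.38-fold) and Gbp2b, which passed the minimum only through the day 0 library. Gbp10, which did not pass the minimum, went from 0 to 40 counts, at least 7.31-fold higher by the floor of 3 counts, with a counting interval from 5.68-fold upward. From day 3 to day 9 all 7 tested members lay below 0 (50.7% of all genes), 1, Gbp3, was at least 2-fold lower (2.71-fold), against 5.4% of all genes, and 0 were at least 2-fold higher (8.16% of all genes). The median was -0.45. Between day 9 and day 0, 2 of 7 were at least 2-fold lower (22.6% of all genes), Gbp9 and, again passing only through day 0, Gbp2b. Gbp3 and Gbp6 were the 2 that were at least 2-fold higher (26.1% of all genes). As CPM, the family made up 298, 600 and 278 at days 0, 3 and 9 in FGF8 cells and 1981, 754 and 522 in untreated cells.

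For the contrast of FGF8 with untreated cells, an effect common to days 0, 3 and 9 was fitted by edgeR (quasi-likelihood test), blocking on day, with Benjamini-Hochberg adjustment over 14569 genes. This fit has 2 residual degrees of freedom, treats the 3 days as repeats of 1 contrast, and called 182 genes lower (1.25%) and 3 higher (0.0206%). All 10 members had a log2 fold change below 0 (46.1% of all genes), 7 had an unadjusted p under 0.05, as had 3389 of all genes, and 1, Gbp2b, was called lower. For Gbp2b the log2 fold change was -2.61 ± 0.27 (SE) with an edgeR adjusted p of 0.0441, lower in 3 of 3 pairs but with more than 1 count only at day 0. Its adjusted p ranged from 2.14e-07 to 0.287 over the alternatives, and without the day 0 libraries it was not tested at all. Next came Gbp9 (-1.90 ± 0.29, edgeR adjusted p 0.0624, lower in 3 of 3 pairs, range 1.25e-06 to 1.00) and Gbp5 (-2.26 ± 0.50, edgeR adjusted p 0.109, lower in 3 of 3 pairs, range 0.000124 to 0.797), neither of which passed. Gbp3 had the highest adjusted p of the members (-1.27 ± 0.67, edgeR adjusted p 0.311, range 0.108 to 1.00).

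Without the day 0 libraries, 6 of the 7 members tested were called lower by edgeR, against 11.6% of all genes. These were Gbp2 (log2 fold change -0.79 ± 0.14, edgeR adjusted p 0.00910), Gbp5 (-1.61 ± 0.23, 0.00409), Gbp6 (-0.63 ± 0.14, 0.0231), Gbp7 (-0.85 ± 0.14, 0.00678), Gbp9 (-1.60 ± 0.34, 0.0187) and Gbp10 (-2.17 ± 0.45, 0.0184), each lower in 2 of 2 pairs. Gbp3 was not called (-0.41 ± 0.24, edgeR adjusted p 0.292, lower in 1 of 2 pairs). Without day 3 and without day 9, 0 members were called by edgeR, with 8 and 5 members at an unadjusted p under 0.05. So were 1510 of 14256 and 1868 of 13743 genes in all. DESeq2's Wald test on the 3 days called 7 members lower, against 8.85% of all genes, and gave Gbp8 no adjusted p.

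The listed regulators of GBP transcription include the interferon receptors, their kinases and transcription factors. The shares of all genes at least 2-fold lower after FGF8 at days 0, 3 and 9, 10.8%, 12.1% and 8.74%, are the background of the counts in this and the next lists. Of 17 listed genes, 16 were tested, and 5, 2 and 3 of them were at least 2-fold lower, the 2 at day 3 being near the background, with 0 higher and medians of -0.66, -0.50 and -0.34. Stat2, which encodes a transcription factor of the type I interferon response, had log2 fold changes below 0 at each day (-2.16, -0.89 and -0.97), whereas Irf1, which encodes an activator of GBP promoters, had -0.62, -0.50 and -0.065. Ifnar2, a chain of the type I interferon receptor, was the 1 of 17 called lower by edgeR, against 1.25% of all genes (log2 fold change -1.03 ± 0.13, adjusted p 0.0499, lower in 3 of 3 pairs, range 5.65e-06 to 0.742 over the alternatives). Without day 0, edgeR called 8 of the 17 lower (11.6% of all genes), and without day 3 or day 9 it called 0, with 6 and 5 at an unadjusted p under 0.05, as were 1510 of 14256 and 1868 of 13743 genes in all.

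Among the feedback and antagonist genes of the same list, Socs1 (-1.69, -0.74 and -1.29) and Usp18 (-1.51, -0.44 and -1.01), both of which restrain interferon signaling, and the repressor Irf2 (-1.03, -0.79 and -0.41) had log2 fold changes below 0 at days 0, 3 and 9. Genes that load GBPs onto vacuoles were 15 listed of 16, with 6, 2 and 3 at least 2-fold lower, again near the background at day 3. The medians were -0.38, -0.40 and -0.18. The list was mixed, with 10 of the 15 below 0 and 5 above 0 at each day, up to 0.35, 0.37 and 0.28. At day 0 the immunity-related GTPases Igtp, Irgm1 and Irgm2 had -2.49, -2.39 and -2.13, and the ubiquitin-related enzymes Ube2l6 and Rnf213 had -2.43 and -2.14. At day 3 these 5 lay between -1.13 and -0.47. EdgeR called 0 of the 15 over the 3 days, with 7 at an unadjusted p under 0.05, as were 3389 of 14569 genes in all. The edgeR adjusted p-values were 0.107 to 0.162 for the 5 named. DESeq2 called 5 lower (8.85% of all genes), and edgeR without day 0 called 4 lower (11.6% of all genes).

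In the inflammasome list, 9, 7 and 7 of 12 genes were tested at the 3 days, and 5, 4 and 3 were at least 2-fold lower, with medians of -1.06, -1.12 and -0.64. Gsdmd, which encodes the pore-forming gasdermin D, had 2103, 650 and 502 normalized counts in untreated and 919, 201 and 172 in FGF8 cells, and edgeR called it lower (log2 fold change -1.50 ± 0.17, adjusted p 0.0451, lower in 3 of 3 pairs, range 8.46e-09 to 1.00). Zbp1, a sensor of Z-form nucleic acids, was also called lower by edgeR (-2.48 ± 0.31, adjusted p 0.0479, lower in 3 of 3 pairs, range 4.03e-11 to 0.718). Without day 0 edgeR called 3 of 10 lower (11.6% of all genes). Without day 3 or day 9 it called 0, with 3 at an unadjusted p under 0.05 in each, as were 1510 of 14256 and 1868 of 13743 genes in all. Casp4 (-1.07, -1.58 and -1.32) and the cytokine gene Il18 (-0.28, -1.12 and -0.64) lay below the untreated level at each day, while Gsdme lay above it at days 0 and 3 (0.29 and 0.73).

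The other dynamin-like GTPases are related to GBPs but mostly serve membrane fission and fusion. Of 16 genes tested, 3, 4 and 3 were at least 2-fold lower and medians were -0.24, 0.20 and -0.00096. The interferon-induced members Mx1 (-4.90, -1.17 and -2.38) and Mx2 (-2.87, -0.50 and -1.09) were lower, whereas the mitochondrial Dnm1l (0.70, 0.53 and 0.47) and Opa1 (0.42, 0.65 and 0.21) were above 0 at each day. The dynamin gene Dnm1 lay at 0.043, -1.69 and -1.44. EdgeR called 0 of the 16, with 6 at an unadjusted p under 0.05, as were 3389 of 14569 genes in all. DESeq2 called 3 lower (8.85% of all genes) and 1 higher (472 of 13787 genes).

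**Figure D4:**
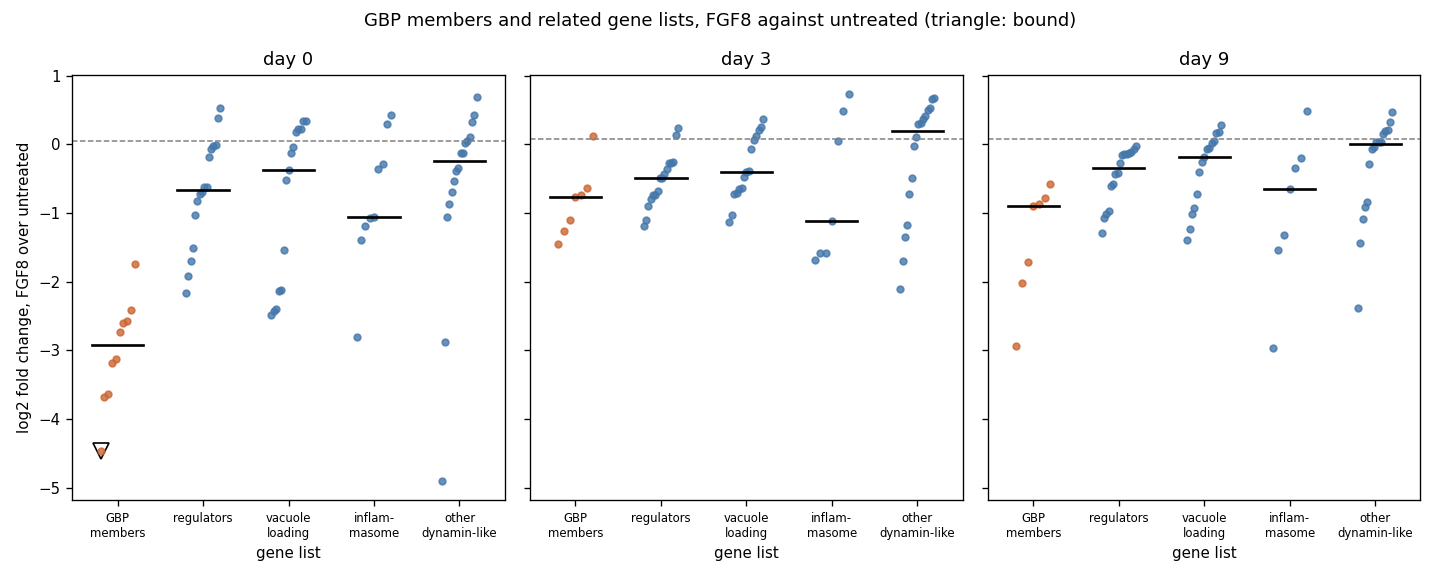
Each point is 1 gene that averaged at least 20 normalized counts in its pair, plotted as its log2 fold change of FGF8 over untreated cells for the GBP members and 4 related lists in 3 panels by day, with a black bar for the list's median, a dashed line for the median of all genes and a triangle for the bound of Gbp10. At day 0 the GBP median of -2.93 lies below the list medians of -0.66, -0.38, -1.06 and -0.24, and at day 3 the GBP median of -0.77 lies above that of the inflammasome list, -1.12.

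The genes whose profile over the 6 libraries was most like the mean profile of 9 GBP members (Gbp8 was left out for its low counts) were Tmem26, Fbn2, Rab32, Lgals9 and Zbtb20, with Pearson's r from 0.990 to 0.996 among 11374 genes. The 6 points are the same libraries for every gene, and r is given as a description. Tmem26, which encodes a surface protein known as a marker of beige fat cells, had 558, 91.6 and 90.1 normalized counts in untreated and 52.5, 33.0 and 31.7 in FGF8 cells. Lgals9, which encodes the lectin galectin-9, had 15850, 4540 and 4982 in untreated and 2768, 2446 and 2010 in FGF8 cells. Both were highest in the untreated day 0 library, as was the GBP pool. Among the members, r with their own mean was 0.97 for Gbp7 and 0.96 for Gbp2, and was lowest for Gbp6 (0.16) and Gbp10 (0.42).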

How the data were processed

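RNA was sequenced from 6 cultures with a stranded mRNA kit. The authors trimmed the reads with Trim Galore, aligned them to GRCm39 (mm39) with HISAT2 and used featureCounts to obtain the raw counts per gene symbol that they deposited for each library. Tool versions, annotation, strand setting and the treatment of multiply matching reads are not given in the sources used here, and these decide how reads of near-identical copies such as Gbp6 and Gbp10 were assigned. Libraries were grouped by the treatment and day in their labels.

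Counts were divided by DESeq2 (1.42.0) size factors over the 6 libraries. A log2 fold change is a difference of log2(normalized count + 1), with a pseudocount of 1, between 2 libraries. Folds of single members given as ratios, and the 95% Clopper-Pearson intervals, were computed without the pseudocount. At low counts these ratios therefore differ from the log2 fold changes beside them. The intervals and the floor of 3 counts cover counting error only. The 2-fold rule was applied to genes that averaged 20 or more normalized counts in the pair. No p-value between 2 libraries was computed. The FGF8 effect shared by the 3 days was fitted with edgeR (4.0.16; TMM, filterByExpr, quasi-likelihood test, day as block, adjusted p under 0.05) on all genes, and its standard errors come from the F statistic. The p-values measure only the spread between the days. On simulated counts this step called 200 of 200 genes changed 4-fold and 10 unchanged genes among 13256. There the 2-fold rule at day 0 found 195 of 196 and 18 unchanged among 12546. For the edgeR step, the changed genes were drawn above a minimum level, and all genes shared 1 dispersion. Recovery of low-count genes, of genes with another spread and of effects that differ between the days was not tested. In the data the edgeR step called Gbp2b (log2 fold change -2.61) but not Gbp4 (-2.92), Gbp10 (-2.93) or Gbp5 (-2.26). The edgeR adjusted p was 0.109 for Gbp4, 0.165 for Gbp10 and 0.109 for Gbp5. Depth was 16403254 to 38551551 counts per library. Coordinates and exon lengths come from GENCODE M39 on GRCm39, and promoter windows from RefSeq (GRCm38.p6), placed on GRCm39 by exact match. R 4.3.3, Python 3.11.15, scipy 1.17.1, pandas 2.3.3 and matplotlib 3.10.9 were used.

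The members, lists and naming rules were chosen with earlier results of these data known. All members are named. From each related list, the 5 genes with the largest absolute mean log2 fold change over the days and at least 100 normalized counts on average were to be named, with Irf1, Mx1 and Mx2, and the 5 genes most like the mean GBP profile and the paralog Gbp11. Ifi202b, Mir6236, Ptchd1 and Xist were named after their values were seen. Alternatives were other scalings, pseudocounts of 0.5 and 5, a minimum of 100 or none, 1.5-fold and 4-fold rules, other fits and leaving out each day. Protein sequences were not used here, and the values of 1 listed gene are not reported here.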

Additional observations from a re-analysis of the deposited data

Results flagged for a closer look

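The values below were singled out because treatments or days moved in opposite directions. With 1 library per condition, these differences were not tested. From day 0 to day 3, Gbp2 was lower in untreated cells (log2 fold change -1.52) and higher in FGF8 cells (0.47), Gbp3 had -0.64 and 2.61, and Gbp5 had -1.19 and 1.04. From day 0 to day 9, Gbp3 had -1.06 in untreated and 1.18 in FGF8 cells, and Gbp5 had -1.02 and 0.95. Each of these 3 members had its lowest normalized count of the 6 libraries in the FGF8 library of day 0, which enters each FGF8 value. For Gbp2 this library barely differed from the FGF8 library of day 9 (1279 against 1328, counting interval of the log2 fold change -0.060 to 0.17). For the FGF8 effect on Gbp3 the values were -3.13, 0.13 and -0.89 at days 0, 3 and 9, and that of day 3 was 0.020 with total counts as the scale.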

How the results depend on the processing

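The count of 10 members at least 2-fold lower after FGF8 at day 0 stayed within 1.5 times under the other scalings, pseudocounts, minimums and fold rules that were run. For the median at day 3, total counts as the scale gave -0.88. With a 1.5-fold rule 6 members were lower at day 3 and 6 at day 9, and with a 4-fold rule 0 were lower at day 3. Shares of all genes under the 1.5-fold and 4-fold rules are not given. These counts and those below therefore show only how the member counts depend on the rule. For untreated cells from day 0 to day 3 the median was -1.52 with the main settings, -1.41 with TMM and -1.64 with no minimum. Over these days 1 member was higher at 1.5-fold and 3 were lower at 4-fold. From day 3 to day 9 the untreated median was -0.19 with the main settings and -0.33 with total counts. It turned to 0.11 with no minimum, which adds Gbp4 and Gbp8. Over these days 1 member was lower at 1.5-fold and 0 were higher at 4-fold. From day 0 to day 9 the untreated median was -1.89 with the main settings and -2.07 with total counts. It was -1.47 at a minimum of 100 and -2.13 with none, with 2 members higher at 1.5-fold and 4 lower at 4-fold. For FGF8 cells from day 0 to day 3 the median was 0.47 with the main settings. It was 0.26 with total counts, with a minimum of 100 and with none, and 4 members were lower with none. From day 3 to day 9, 3 members were lower at 1.5-fold and 0 at 4-fold. From day 0 to day 9 the median in FGF8 cells was 0.055 with the main settings, -0.22 with total counts and -0.30 with a minimum of 100 or none. Over these days 1 member was higher with total counts, 1 was higher at 4-fold and 4 were lower with no minimum.

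For the FGF8 effect shared by the 3 days, edgeR called 1 member and 185 genes. It called 110 genes with DESeq2 size factors and 2 members and 419 genes with no filter on low counts. DESeq2's Wald test called 7 members and 1692 genes. Days pair the libraries by design. With no day block, edgeR called 0 members and 0 genes, with 3 members and 575 genes at an unadjusted p under 0.05. Leaving out a day gave 0 to 6 members and 0 to 2230 genes, the highest without day 0, where Gbp2b was not tested, and 0 without day 3 and without day 9. Each of these fits has 1 residual degree of freedom. No further pairing was possible because the labels give no replicate numbers. Of the 5 genes most like the GBP profile, 2 were among the first 5 with log2(CPM + 1). With the canonical transcript as the length, chosen after seeing the data, the share of Gbp3 in the pool was 38.7%, 61.1% and 59.7% in untreated and 31.5%, 74.5% and 58.9% in FGF8 cells at days 0, 3 and 9. Apart from the alternatives that drop genes or libraries by their own construction, the cause was not tested. Counting error limits Gbp4, Gbp8 and Gbp10, whose highest counts were 69, 25 and 228.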
